A study of Oryza sativa with 6 samples.

Results

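The CBL calcium sensors and CIPK kinases of rice were examined in leaves of 30-day seedlings, in the transgenic line KMD and in XS11 (cultivar Xiushui 11), the background in which the labels place both lines. Members were the genes whose symbol or synonym is CBL1 to CBL10 or CIPK1 to CIPK33 and that the array's annotation ties to a probe set of 1 gene. Of 43 names, 40 were found in the RefSeq naming table, and CBL8, CIPK4 and CIPK28 were not matched. The matched names stand for 39 genes, of which 31 had such a probe set (7 CBL and 24 CIPK), among 17905 genes named on the array. CBL1, CBL7, CIPK3, CIPK9, CIPK13, CIPK15, CIPK27 and CIPK33 had none and were not analysed here. The 31 genes were read by 42 probe sets on each of 6 Affymetrix rice arrays, 3 KMD and 3 XS11. Both lines were raised alike from surface-disinfected seed in a climate chamber, and the labels name no treatment. KMD is generally known as an insect-resistant rice with a Bacillus thuringiensis cry1Ab transgene, which the labels do not say. The labels give 1 KMD line, name no promoter, and describe biological replicates with no count of plants behind each, so p-values measure the spread between these arrays. The study looked for differentially expressed genes as a route to unintended effects in KMD.

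Plants read many stresses through brief rises in cytosolic calcium. CBL (calcineurin B-like) proteins bind the calcium and then bind and switch on CIPKs, which are serine/threonine kinases of the SnRK3 group held inactive by a regulatory domain until a CBL docks on it. The pairs act at the plasma membrane or the vacuole on ion transport. A CBL4-CIPK24 pair drives sodium export through SOS1 in salt stress, and a CBL1-CIPK23 pair opens the potassium uptake channel AKT1.

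Of the 31 genes, 28 were bright enough to be tested (5 CBL and 23 CIPK), each read by its brightest probe set. In KMD leaves 3 of the 5 tested sensor genes rose (CBL4, CBL2 and CBL10) and 0 fell, whereas on a scale set by the added spike-in RNAs 0 rose and 4 fell. Of the 23 tested kinase genes, 5 rose (CIPK14, CIPK6, CIPK7, CIPK8 and CIPK1), 9 fell (CIPK16, CIPK2, CIPK10, CIPK25, CIPK32, CIPK19, CIPK31, CIPK24 and CIPK17) and 9 did not pass the test, and on the spike-in scale only CIPK14 remained higher while 21 were lower. The test was limma on log2(signal + 11.17) with Benjamini-Hochberg adjustment across the 34404 probe sets tested and a threshold of 0.05. It called 17 of the 28 genes, or 60.7%, and it called 56.2% of all 14790 genes tested the same way, 23.2% higher and 33.0% lower, so the share called among the CBL and CIPK genes lies near that of genes at large. The median log2 difference, KMD minus XS11, was 0.18 over the CBL genes and -0.10 over the CIPK genes, beside -0.03 over all genes, while on the spike-in scale both family medians were negative, at -0.44 and -0.72. The difference between sensors and kinases was not tested.

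Most changes were small on the values as deposited. There the median absolute log2 difference of the 28 genes was 0.20, beside 0.19 over all genes. On the values as deposited, CBL4 was the only sensor gene to change by at least 0.5 on the log2 scale, while on the spike-in scale CBL3 (-0.70) and CBL6 (-0.51) passed that size and CBL4 did not. On the values as deposited, CIPK14, CIPK16 and CIPK2 were the kinase genes to change by at least 0.5 by their brightest probe sets. On the spike-in scale every tested kinase gene but CIPK1 (-0.42), CIPK6 (-0.18), CIPK7 (-0.30) and CIPK8 (-0.33) passed that size. Over all genes as deposited, 4.43% were called and higher by that amount and 9.09% were called and lower by that amount. CIPK14 was also called and at least 2-fold higher in KMD, as were 0.609% of all genes. The 3 KMD arrays did not overlap the 3 XS11 arrays in 20 of the 28 genes, 5 of 5 CBL and 15 of 23 CIPK, and in 65.6% of all genes.

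**Figure D1:**
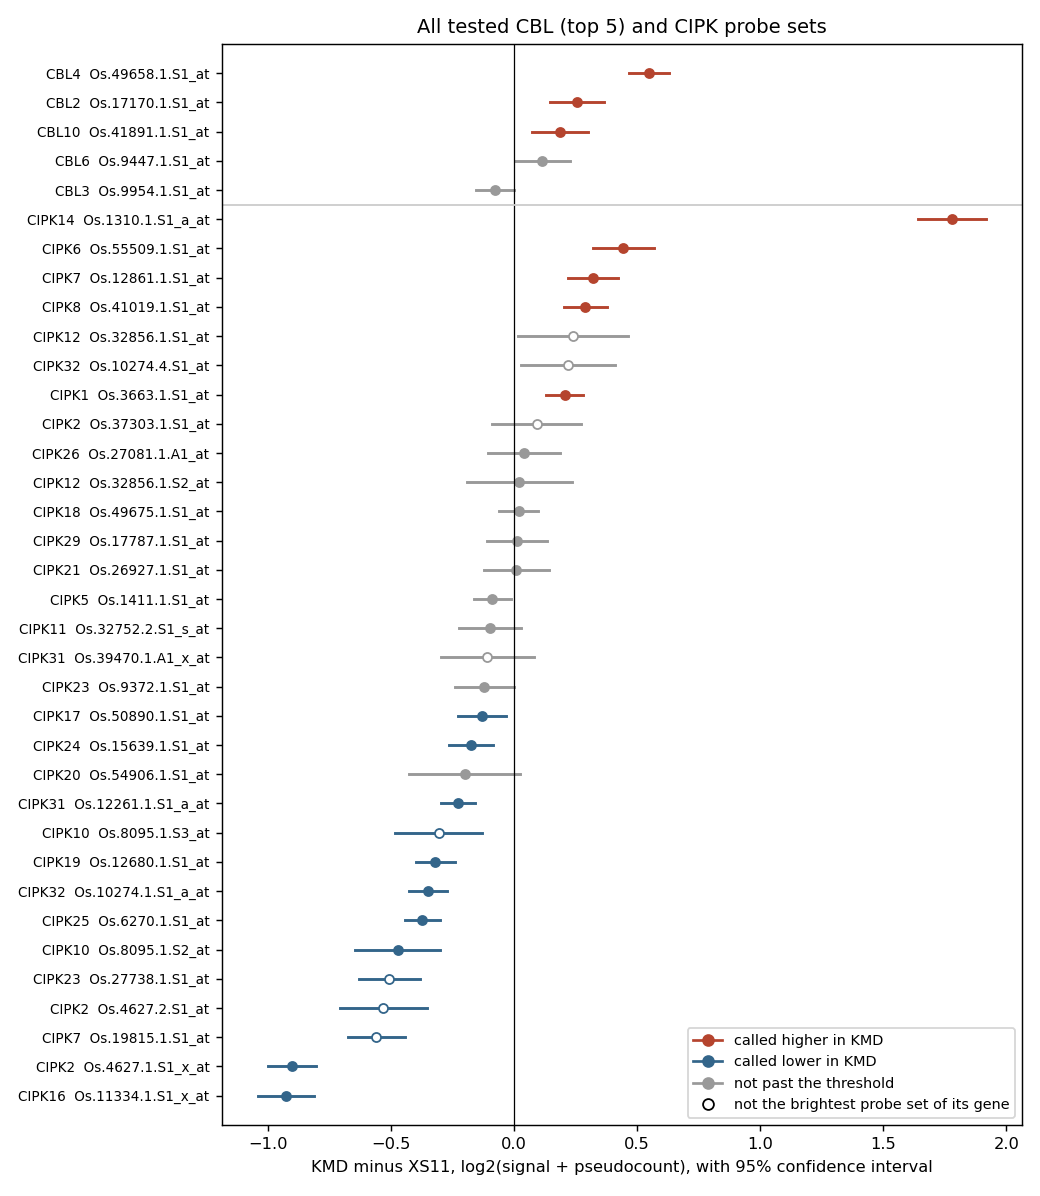
Log2 difference between KMD and XS11, log2(signal + 11.17), for each of the 36 tested CBL and CIPK probe sets, with the 95% confidence interval of the single probe set (3 arrays per line). CIPK14 lies far to the right at 1.78, CIPK16 and CIPK2 lie farthest to the left at -0.93 and -0.90, and the open symbols, which mark probe sets that are not the brightest of their gene, show CIPK7 on both sides of 0. On the spike-in scale all points but that of CIPK14 lie below 0.

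On the values as deposited CBL4 had the largest difference of the 5 tested sensors, and on the spike-in scale it had the smallest. CBL4 is the rice counterpart of Arabidopsis SOS3, the sensor of the sodium export pathway. Its signal was 961, 1015 and 971 in the KMD arrays, against 659.7, 675 and 672 in the XS11 arrays. Every KMD array lay above every XS11 array, and the gap was far wider than the spread within either line. On the values as deposited CBL4 rose by a log2 difference of 0.55 (SE 0.04, limma adjusted p = 6.98e-08), while on the spike-in scale its difference was -0.07 and did not pass (adjusted p = 0.361).

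CBL2 and CBL3 are close relatives whose Arabidopsis counterparts sit at the vacuole membrane. CBL2 read 218, 227 and 215 in KMD and 181, 182 and 186 in XS11. The lines did not overlap, and CBL2 rose by 0.25 on the log2 scale (SE 0.05, limma adjusted p = 0.00114), which turned to -0.37 on the spike-in scale. CBL3 read 687, 698 and 687 in KMD and 723, 724 and 743 in XS11. Here the KMD arrays were the lower ones, without overlap, but the log2 difference of -0.08 (95% interval of the single probe set -0.16 to -0.00057) did not pass the limma test (adjusted p = 0.105). On the spike-in scale CBL3 was called lower, at -0.70.

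CBL10 is the sensor tied to salt tolerance of the shoot in Arabidopsis. Its signal was 288, 309 and 316 in KMD and 281, 262 and 257 in XS11. The lowest KMD array lay just above the highest XS11 array. CBL10 rose by 0.18 (SE 0.05, limma adjusted p = 0.013), and this call ended without KMD replicate 3 (0.16, adjusted p = 0.0654) or without XS11 replicate 2 (0.17, adjusted p = 0.0521) and turned to -0.44 on the spike-in scale. CBL6 read 767, 724 and 708 in KMD and 706, 703 and 624 in XS11. The lines were apart by a narrow margin, and its difference of 0.11 (95% interval 0.0029 to 0.22, limma adjusted p = 0.0992) did not pass. After quantile normalization CBL6 did pass, at 0.18 (adjusted p = 0.00843), and on the spike-in scale it was -0.51.

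CBL5 and CBL9 were too dim to be tested. CBL5 read 11.7, 11.8 and 13.4 in KMD and 13.9, 15.4 and 12.7 in XS11, close to the 10th percentile of all values (11.17), with overlap between the lines. CBL9 had a pair of probe sets. The brighter one, Os.6325.1.A1_x_at, read 23.9, 22.8 and 20.1 in KMD and 14.3, 16.6 and 16.8 in XS11. All of its KMD values lay above its XS11 values, and in the fit with no filter on dim probe sets its log2 difference was 0.31 (limma adjusted p = 0.0215). This difference is less than the 0.62 by which spike-in centring lowers every probe set. The other, Os.6325.2.A1_x_at, read 12.1, 16.6 and 12.9 in KMD and 14.3, 13.2 and 14.6 in XS11, with overlap and a log2 difference of -0.01 in that fit (limma adjusted p = 0.955). The dim signals of CBL5 and CBL9 were not shown to be above background.

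**Figure D2:**
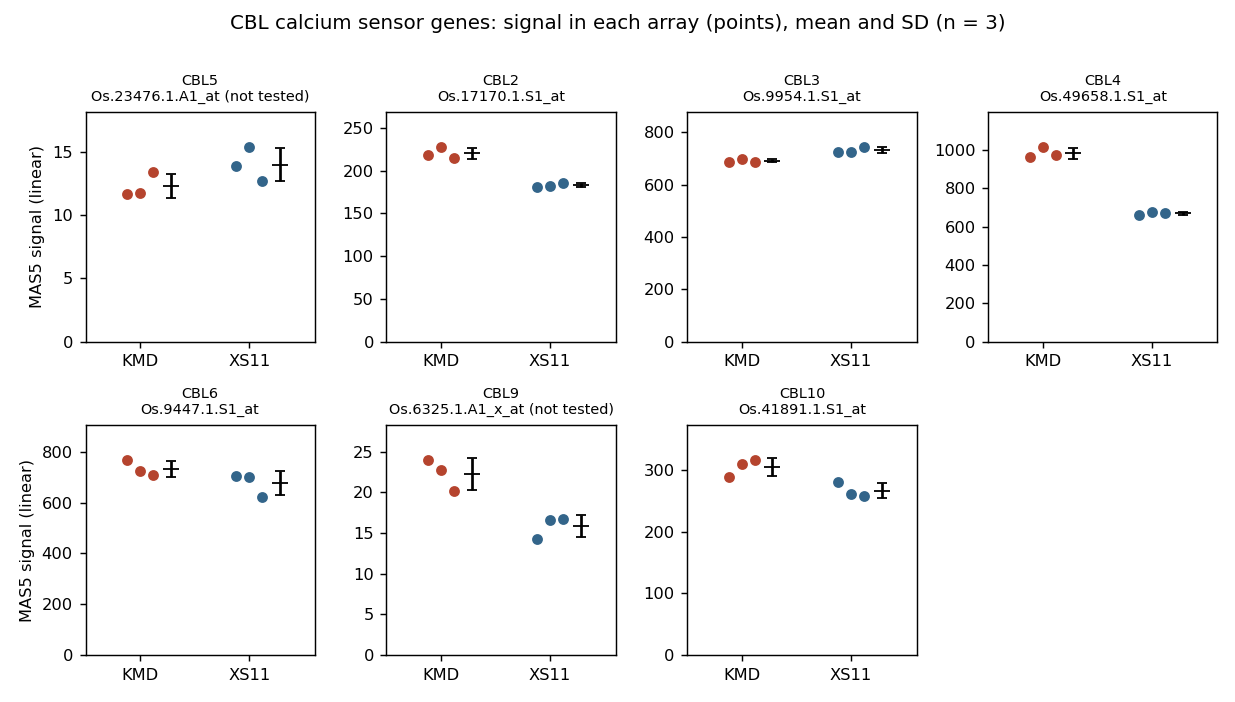
MAS5 signal on a linear scale for the 7 CBL genes with a probe set, in each KMD array (left) and each XS11 array (right), with mean and SD (n = 3 each); CBL9 is shown by its brighter probe set. CBL4 averaged 983 in KMD and 669 in XS11, and CBL3 is the only tested CBL gene with its KMD arrays on the lower side. On the spike-in scale the differences of all 5 tested CBL genes are negative.

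CIPK14 had the widest difference of both families on the values as deposited, while on the spike-in scale CIPK16 (-1.55) and CIPK2 (-1.53) were farther from 0 than CIPK14 (1.16). Rice CIPK14 and CIPK15 encode near-identical kinases that take part in defence responses to microbial elicitors. CIPK14 (Os.1310.1.S1_a_at) read 213, 222 and 214 in KMD and 58.2, 54.2 and 52.9 in XS11. The lowest KMD array was more than 3 times the highest XS11 array. The log2 difference was 1.78 (SE 0.06, limma adjusted p = 1.41e-10), or 3.43-fold on the log2(signal + 11.17) scale, and 1.16 on the spike-in scale, where it was still called higher. Across the other alternatives it ran from 1.67 to 1.95. CIPK15 has no 1-gene probe set here, so signal from CIPK15 and signal from CIPK14 cannot be told apart. CIPK14 itself rests on this 1 probe set.

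CIPK16 and CIPK2 fell by nearly equal amounts. CIPK16 (Os.11334.1.S1_x_at) read 213, 242 and 227 in KMD and 454, 434 and 439 in XS11. Each KMD array was well below each XS11 array, the KMD mean being 51.4% of the XS11 mean. CIPK16 fell by 0.93 on the log2 scale (SE 0.05, limma adjusted p = 1.01e-08), or to -1.55 on the spike-in scale, and rests on 1 probe set of a type whose probes can also bind other transcripts. Rice CIPK16 lies next to CIPK27, which has no 1-gene probe set, and the share of signal from it was not tested.

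CIPK2 was read by 3 tested probe sets that did not move alike. The brightest, Os.4627.1.S1_x_at, read 833, 749.7 and 828 in KMD and 1555, 1523 and 1457 in XS11, and fell by 0.90 (SE 0.05, limma adjusted p = 3.32e-09), or to -1.53 on the spike-in scale. The next, Os.4627.2.S1_at, read 168, 162 and 158 in KMD and 271, 250.1 and 205 in XS11, and fell by 0.53 (SE 0.08, limma adjusted p = 0.000133). In both the lines were apart. The last, Os.37303.1.S1_at, read 54.5, 50.9 and 55.6 in KMD and 47.8, 46.9 and 54.7 in XS11, with overlap, and its difference of 0.09 (95% interval -0.09 to 0.27, limma adjusted p = 0.436) did not pass. CIPK29 is the direct neighbour of CIPK2 on the chromosome in the RefSeq assembly ASM3414082v1, and its own difference was 0.01 (adjusted p = 0.903), so these adjacent genes did not get the same call. The mean of the 3 CIPK2 probe sets fell by 0.45 (log2 difference -0.45, limma adjusted p = 1.1e-05).

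**Figure D3:**
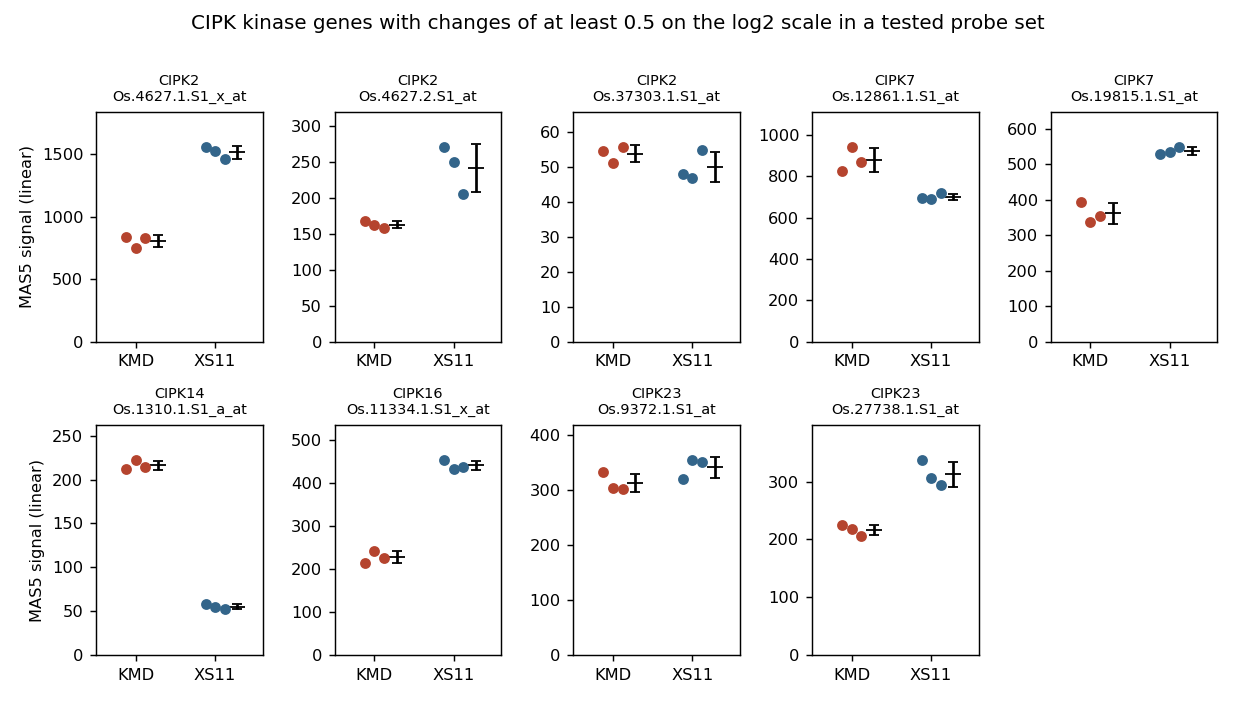
MAS5 signal on a linear scale for every tested probe set of 5 CIPK genes. These are the CIPK genes that changed by at least 0.5 on the log2 scale, as deposited, in any tested probe set. Each KMD array is at left and each XS11 array at right, with mean and SD (n = 3 each). CIPK14 averaged 216 in KMD and 55.1 in XS11, CIPK16 averaged 227 in KMD and 442 in XS11, and the probe sets of CIPK7 point in opposite directions; on the spike-in scale both of CIPK7 are lower in KMD.

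CIPK7, a rice kinase described in chilling responses, gave opposite calls from its probe sets. Os.12861.1.S1_at read 823, 941 and 871 in KMD and 692, 692 and 717 in XS11, a rise of 0.32 (limma adjusted p = 9.47e-05). Os.19815.1.S1_at read 393, 336 and 355 in KMD and 528, 535 and 548 in XS11, a fall of 0.56 (log2 difference -0.56, limma adjusted p = 1.71e-06). In each of them the lines were fully apart, so the direction of CIPK7 depends on which probe set is read, and on the spike-in scale both were lower, at -0.30 and -1.18. The count of 5 kinase genes that rose uses the brighter one. With both averaged per array, CIPK7 fell by 0.12 (log2 difference -0.12, limma adjusted p = 0.0186). With every gene read by the mean of its tested probe sets, 4 kinase genes rose and 10 fell. In that reading CIPK23 was also called lower and CIPK32 was no longer called.

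Of the 7 genes with more than 1 tested probe set, all of them kinases, CIPK7 alone had opposite calls. CIPK2, CIPK23, CIPK31 and CIPK32 had a probe set that was called and another that was not, and CIPK10 and CIPK12 had the same call in both. The other 21 tested genes rest on 1 probe set. Over all 36 tested CBL and CIPK probe sets 8 rose, 13 fell and 15 did not pass, beside 18.1% higher and 21.6% lower (39.7% called) of the 34404 tested, whereas on the spike-in scale 1 rose and 33 fell. Of these 36, 7 are of the types a_at, s_at and x_at, which can take signal from several transcripts or from related genes. The probe sets of CIPK14, CIPK16 and CIPK2 with the widest changes are all of those types.

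CIPK23, the kinase that activates the AKT1 channel for potassium uptake, was such a split case. Its brightest probe set, Os.9372.1.S1_at, read 332, 302 and 302 in KMD and 318, 353 and 349 in XS11. These arrays overlapped, and the difference of -0.12 (95% interval -0.24 to -0.0028) did not pass (limma adjusted p = 0.1). It passed without KMD replicate 1 (-0.16, adjusted p = 0.0392) or XS11 replicate 1 (-0.17, adjusted p = 0.0318), and with array weights (-0.15, adjusted p = 0.0258). The other CIPK23 probe set, Os.27738.1.S1_at, read 225, 218 and 207 in KMD and 337, 307 and 295 in XS11. There the lines were apart and the signal fell by 0.51 (log2 difference -0.51, SE 0.06, limma adjusted p = 9.47e-06). The mean of both probe sets also fell, at -0.31 (limma adjusted p = 0.00013).

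CIPK24, the counterpart of the Arabidopsis kinase SOS2 and partner of CBL4, read 379.8, 383 and 374 in KMD and 427, 421 and 441 in XS11. All KMD arrays were lower. CIPK24 fell by 0.18 (log2 difference -0.18, SE 0.04, limma adjusted p = 0.00363), while its sensor partner CBL4 rose. On the spike-in scale CIPK24 was lower by more, at -0.80, and CBL4 was at -0.07. SOS1, the exchanger that this pair activates, was on the list of pathway names but gave no value here.

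The remaining kinases that rose were CIPK6, CIPK8 and CIPK1. CIPK6 read 154, 159 and 154 in KMD and 110.3, 113 and 112 in XS11, with a tight spread within each line. It rose by 0.44 (SE 0.06, limma adjusted p = 3.04e-05), against -0.18 on the spike-in scale. CIPK8, whose Arabidopsis counterpart takes part in nitrate responses, averaged 947 ± 35.3 in KMD and 773 ± 26.2 in XS11 (SD, n = 3 arrays each). CIPK8 rose by 0.29 (limma adjusted p = 6.94e-05), against -0.33 on the spike-in scale. CIPK1 averaged 2706 ± 78.8 in KMD and 2346 ± 51.3 in XS11 (SD, n = 3 arrays each), a rise of 0.20 (limma adjusted p = 0.000268) that turned to -0.42 on the spike-in scale. In all 3 genes the KMD arrays lay above the XS11 arrays without overlap.

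The remaining kinases that fell were CIPK10, CIPK25, CIPK32, CIPK19, CIPK31 and CIPK17. CIPK10 read 63.6, 62.6 and 59 in KMD and 95.3, 81.2 and 94.5 in XS11 by its brightest probe set (log2 difference -0.47, limma adjusted p = 0.000279), and a second tested probe set gave -0.31 (adjusted p = 0.00799). The last 2 of the 4 CIPK10 probe sets were too dim to test. CIPK25 averaged 2018 ± 20.8 in KMD and 2619.8 ± 77.7 in XS11 (SD, n = 3 arrays each), a log2 difference of -0.37 (limma adjusted p = 8.58e-07). CIPK19 averaged 776 ± 20.4 in KMD and 972 ± 14.2 in XS11, a log2 difference of -0.32 (limma adjusted p = 9.41e-06 with 3 arrays per line). The arrays of the lines were apart in each of these genes.

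CIPK31, known in rice as OsCK1 and described in seedling stress responses, averaged 3997 ± 112 in KMD and 4688 ± 56.7 in XS11 (SD, n = 3 arrays each). It fell by 0.23 on the log2 scale (limma adjusted p = 5.22e-05), and its dimmer probe set, at -0.11 (adjusted p = 0.371), did not pass. That dimmer probe set passed as lower without XS11 replicate 2 (-0.22, adjusted p = 0.0311) and was at 0.01 without XS11 replicate 1. CIPK32 averaged 1453 ± 39.8 in KMD and 1858 ± 52.9 in XS11, with a log2 difference of -0.35 (limma adjusted p = 3.24e-06). Its dim second probe set pointed the other way at 0.22 (adjusted p = 0.0694) and did not pass, although all its KMD values lay above its XS11 values. It passed as higher after quantile normalization (adjusted p = 0.0481), with no trend (0.044), with array weights (0.0101) and without XS11 replicate 3 (0.0173), and the mean of both CIPK32 probe sets was -0.07 and did not pass (adjusted p = 0.3). CIPK17 read 323, 336 and 325 in KMD and 363, 371 and 347 in XS11, apart by a narrow margin. Its fall of 0.13 (log2 difference -0.13, limma adjusted p = 0.0339) was the least secure call. It was lost without KMD replicate 1 (adjusted p = 0.0921), KMD replicate 3 (0.1), XS11 replicate 1 (0.0811) or XS11 replicate 2 (0.146).

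The other 9 tested kinase genes did not pass. CIPK5 came nearest, at 2163, 2278 and 2227 in KMD and 2389, 2412 and 2295 in XS11, which do not overlap. Its difference of -0.09 had a 95% interval from -0.16 to -0.01 and a limma adjusted p of 0.0554. CIPK5 passed without KMD replicate 2 (adjusted p = 0.033) or XS11 replicate 3 (0.0308), with array weights (0.0128) and with the upper 40% of signal (0.0428). CIPK20 read 59.5, 59.1 and 57.6 in KMD and 73.1, 55.8 and 80.9 in XS11, so XS11 replicate 2 lay below every KMD array. Its difference of -0.20 did not pass (adjusted p = 0.153), and without that array it was -0.33 and did (adjusted p = 0.0119). CIPK11 stood at -0.10 (95% interval -0.22 to 0.03), and the direction of its difference was the same under every alternative.

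The smallest differences were those of CIPK26 (0.04), CIPK12 (0.02), CIPK18 (0.02), CIPK29 (0.01) and CIPK21 (0.01). None of these passed, though CIPK18 did after quantile normalization, as higher (0.09, limma adjusted p = 0.049). On the spike-in scale all 5 were negative, between -0.61 and -0.58. Their 95% intervals still differ in width. CIPK18 runs from -0.06 to 0.10, while CIPK12, a dim gene whose rice overexpression lines have been described as drought tolerant, runs from -0.19 to 0.23. A second CIPK12 probe set gave 0.24 (adjusted p = 0.0876) and did not pass, but did without XS11 replicate 3 (0.30, adjusted p = 0.0455), and was -0.38 on the spike-in scale. CIPK30, the direct neighbour of CIPK12, was too dim to test, at 13.4, 16.5 and 16.4 in KMD and 15.7, 16.2 and 18.9 in XS11. On the names, CIPK18 here is a gene that RefSeq also lists as CIPK22, CIPK31 is also listed as CIPK3, and CBL5 is also listed as CBL2.

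**Figure D4:**
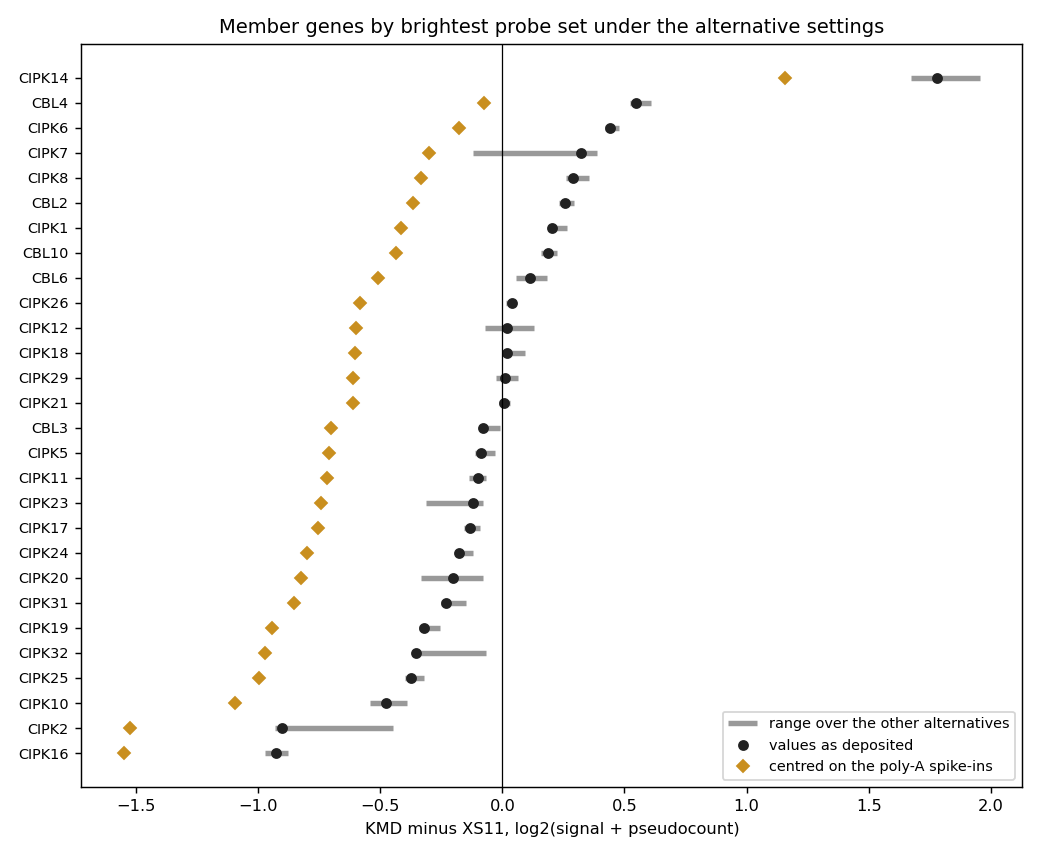
Log2 difference between KMD and XS11 for the 28 tested CBL and CIPK genes by brightest probe set, log2(signal + 11.17), as deposited (black), over the other alternatives, the mean of a gene's probe sets included (grey bar) and after centring on the poly-A spike-ins (orange). Spike-in centring shifts every gene down by 0.62, which leaves CIPK14 at 1.16, puts CBL4 at -0.07, and keeps the order of the genes. The grey bars of CIPK7, CIPK12, CIPK21 and CIPK29 cross 0.

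The spike-in scale matters because the array's 36 poly-A spike-in probe sets each gave more signal in KMD than in XS11, with a mean log2 difference of 0.62. They read only the RNAs dap, lys, phe and thr, added before labelling, so they are not 36 independent measurements. Centring on them moved the median of all tested probe sets to -0.62, beside 0.0017 without it. The ratio of 3' to 5' signal was also higher in every KMD array for actin (5.64 to 5.91, against 4.30 to 4.88 in XS11), GAPDH (3.44 to 3.54, against 2.61 to 2.99) and ubiquitin (1.15 to 1.199, against 0.958 to 1.01), and lower for cyclophilin (0.840 to 0.955, against 1.01 to 1.099). The part of these shifts in the CBL and CIPK results was not tested. As a check of the tissue label, the leaf gene RBCS, for the small subunit of the carbon-fixing enzyme, was bright, at 16012 in KMD and 16111 in XS11.

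Genes listed as markers of other organs differed between the lines as well. The summed signal of 6 leaf genes was 53903 to 54320 in KMD and 56674 to 57074 in XS11. Of these leaf genes, 1 was called higher, 3 were called lower and 2 did not pass. The summed signal of 6 genes listed as root markers (LSI1, LSI2, IRT1, HK3, HK5 and NAAT1) was 2187 to 2247 in KMD and 3196 to 3305 in XS11. Of these, 5 of 5 tested were called lower, beside 33.0% of all genes, and LSI2 was too dim to test. Whether HK3, HK5 and NAAT1 mark roots was not tested, and LSI1 and IRT1 make up a small part of the sum. The root silicon transporter gene LSI1 averaged 194 in KMD and 285 in XS11, and the iron transporter gene IRT1 42.2 in KMD and 64.9 in XS11. The summed signal of 8 seed, pollen or anther genes was 979 to 1016 in KMD and 769 to 794 in XS11. Of 5 tested, 3 were called higher, beside 23.2% of all genes, and 2 did not pass. The 60% called lies near the 56.2% of all genes called. The largest log2 difference of these 5 genes was 0.43, less than the 0.62 by which spike-in centring lowers every gene. The part of these marker differences in the CBL and CIPK results was not tested. In leaves of this kind fewer cells of a type and less RNA per cell cannot be told apart.

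Genes that work with CBL-CIPK pairs were read in the same fit. Of 14 tested transport and oxidase genes that hold known targets of such pairs, 0 rose, 11 fell and 3 did not pass, with a median log2 difference of -0.57, beside -0.03 over all genes, of which 33.0% were called lower. Of 4 genes of this list with more than 1 tested probe set, HAK5 and AMT1-1 gave opposite calls: their brightest probe sets fell (-0.25 and -0.64), and their dimmer ones rose, at 0.45 (adjusted p = 0.000427) and 0.20 (adjusted p = 0.0492), both less than the 0.62 by which spike-in centring lowers every gene. The high-affinity potassium transporter gene HAK1 averaged 166 ± 4.19 in KMD and 585 ± 15.4 in XS11 (log2 difference -1.75, limma adjusted p = 6.7e-12, n = 3 arrays each). The potassium channel gene KCO1 was at -1.21, RBOHB, an NADPH oxidase gene whose product makes signalling superoxide, at -0.77, and the potassium transporter gene HAK16 at -0.72. AKT1, named here for its tie to CIPK23 after its value was seen, averaged 182 in KMD and 264 in XS11 and fell by 0.52 (log2 difference -0.52, limma adjusted p = 2.12e-05).

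Calcium entry and removal genes were read next. Of 5 tested channel and pump genes 0 rose, 4 fell and 1 (TPC1, -0.12) did not pass, beside 23.2% of all genes higher and 33.0% lower. The calcium pump genes ACA8 (-0.69), ACA10 (-0.62) and ACA5 (-0.50) and the glutamate receptor-like channel gene GLR3.1 (-0.47) fell, and the median of the list was -0.50, beside -0.03 over all genes. ACA10 averaged 269.7 ± 16 in KMD and 419.9 ± 20.8 in XS11 (SD, n = 3 arrays each). A dimmer probe set of ACA8 was at -0.10 and did not pass (limma adjusted p = 0.458). The dimmer tested probe sets of ACA10 (-0.69) and GLR3.1 (-0.26) were also called lower.

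Other calcium- and SnRK-type kinases were set beside the same background, in which 23.2% of all genes were higher and 33.0% lower, with a median of -0.03. Calcium-dependent protein kinases carry their own calcium-binding domain and need no CBL. Of 15 tested, 1 rose (CPK1, 0.19), 10 fell and 4 did not pass, with a median of -0.33, and on the spike-in scale 0 rose. CPK24 (-0.64), CPK7 (-0.59), CPK12 (-0.50) and CPK8 (-0.49) fell most. Of 13 other SnRK genes, which are the SnRK1 energy sensors (OSK) and the SnRK2 stress kinases (SAPK), 3 rose, 9 fell and 1 did not pass, with a median of -0.29, and on the spike-in scale 0 rose. OSK3 (-0.74), OSK4 (-0.62), SAPK6 (-0.47) and SAPK3 (-0.42) fell most. The tested probe sets of OSK3 and OSK4 are all of the types a_at, s_at or x_at, and signal shared between these genes was not tested. The CIPKs are the third branch of the same SnRK family, and their median stood at -0.10.

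Type 2C protein phosphatases include the enzymes that bind CIPKs and SnRK2 kinases and hold them off. Of 52 tested, 8 rose, 23 fell and 21 did not pass, with a median of -0.10, and on the spike-in scale 0 rose and 49 fell. The 59.6% called lies near the 56.2% of all genes called. PP2C32 averaged 399 ± 12.5 in KMD and 234 ± 5.96 in XS11 (SD, n = 3 arrays each), a rise of 0.74 that was 0.12 and not called on the spike-in scale (adjusted p = 0.195). PP2C08 (-1.05), PP2C66 (-0.73) and PP2C68 (-0.70) fell.

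**Figure D5:**
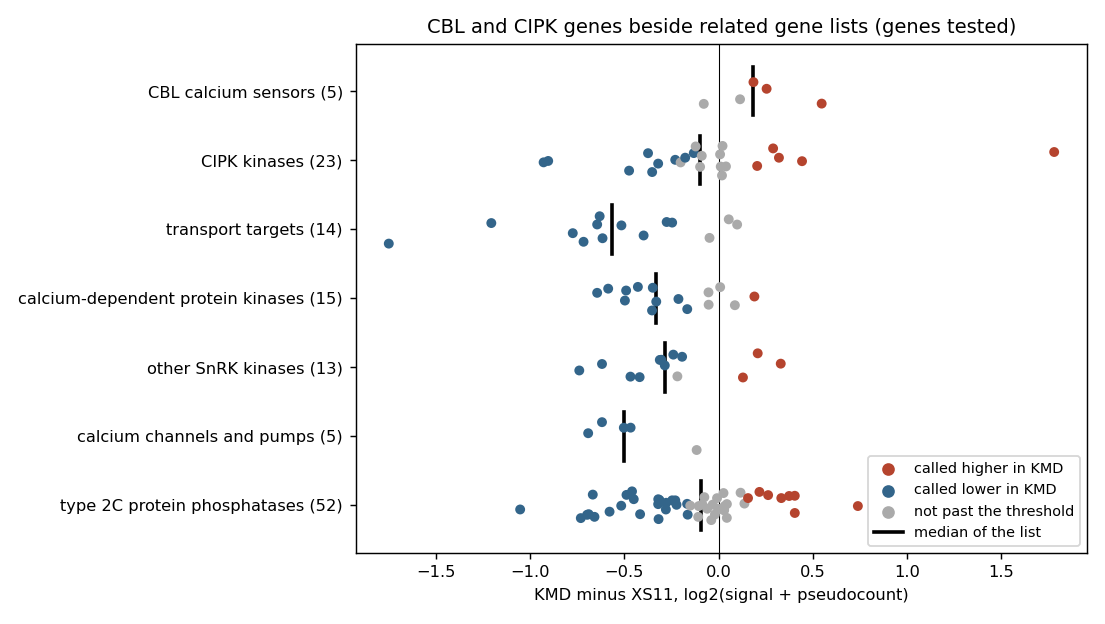
Log2 difference between KMD and XS11, log2(signal + 11.17), for each tested gene (brightest probe set) of the CBL and CIPK families and of 5 related lists, with the list median as a bar and the number of tested genes in brackets. The CBL median is 0.18 and the CIPK median -0.10, while the transport targets have a median of -0.57 and no gene called higher; on the spike-in scale the CBL median is -0.44 and the CIPK median -0.72.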

How the data were processed

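Biotin-labelled RNA of 6 leaf samples, grouped by title, was hybridised to the Affymetrix rice array. The deposited values are intensity on a linear scale, made with MAS5 per the submitters' processing notes; the scaling target is not given in the sources used here. All 6 columns were used. Gene names came from the platform annotation, which ties 22436 of 57381 probe sets to 1 gene, and from the symbols and synonyms of RefSeq assembly ASM3414082v1. No build is named for the values, so no positions are given.

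The signal was taken as log2(signal + 11.17), where the pseudocount is the 10th percentile of the whole table, and was not scaled again, so fold changes of dim probe sets are understated. Probe sets in the upper 60% of mean signal and all 64 reporter probe sets were tested, and 123 control probe sets were left out. The lines were compared with limma's lmFit and eBayes, with an intensity trend, two-sided tests and Benjamini-Hochberg adjustment, and the code was tested on simulated data. Confidence intervals are for single probe sets. A gene is read by its brightest tested probe set, and the level of 1 probe set is not set against that of another. Each CBL gene, and each gene past the threshold by at least 0.5 on the log2 scale, is given by array, and up to 4 genes past the threshold are named per related list. Members and lists were chosen with earlier results of these data known.

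Log2 signals of tested probe sets correlated at 0.995 to 0.997 within a line and at 0.974 to 0.976 between lines. Replicate numbers are shared by the lines, but the deviations of same-numbered arrays correlated at -0.24, -0.01 and -0.25, so no pairing was used. The labels name neither a batch nor a date, and batch and line cannot be told apart if they coincide. The 3 arrays per line limit the precision. Alternatives were pseudocounts of 1 and 18.51, no filter, the upper 40% of signal, quantile normalization, median and spike-in centring, no trend, array weights, a replicate block, a test against 1.2-fold, leaving out each array and the mean over a gene's probe sets. Fits were run in limma 3.58.1 under R 4.3.3, and tables and plots were made in pandas 2.3.3 and matplotlib 3.10.9 under Python 3.11.15.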

Additional observations from a re-analysis of the deposited data

How the results depend on the processing

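Of the 28 tested CBL and CIPK genes, 16 kept their direction and their side of the threshold under every alternative other than spike-in centring and the test against 1.2-fold, and 12 did not (CBL6, CBL10, CIPK5, CIPK7, CIPK12, CIPK17, CIPK18, CIPK20, CIPK21, CIPK23, CIPK29 and CIPK32). The mean over a gene's tested probe sets, applied to single genes after seeing the data, turned CIPK7 to -0.121 and gave 3 CBL genes higher and 0 lower, and 4 CIPK genes higher and 10 lower. Spike-in centring called 32924 of all tested probe sets, beside 13660. It gave 0 CBL genes higher and 4 lower, 1 CIPK gene higher and 21 lower, 1 member probe set higher and 33 lower, medians of -0.44 (CBL) and -0.72 (CIPK), 0 calcium-dependent kinases, 0 other SnRK kinases and 0 phosphatases higher, and 49 phosphatases lower. It turned the sign of CBL2 (-0.37), CBL4 (-0.0747), CBL6 (-0.51), CBL10 (-0.44), CIPK1 (-0.42), CIPK6 (-0.18), CIPK7 (-0.30), CIPK8 (-0.33), CIPK12 (-0.60), CIPK18 (-0.60), CIPK21 (-0.61), CIPK26 (-0.58) and CIPK29 (-0.61), and of the further probe sets of CIPK2 (-0.53), CIPK12 (-0.38) and CIPK32 (-0.40). The test against 1.2-fold called 4102 probe sets in all, 1 CBL gene higher, 2 CIPK genes higher and 3 lower, 3 member probe sets higher and 6 lower, 0 calcium-dependent kinases higher and 4 lower, 0 other SnRK kinases higher and 4 lower, and 1 phosphatase higher and 11 lower. Quantile normalization gave medians of 0.22 (CBL) and -0.0681 (CIPK), 2 calcium-dependent kinases higher, and 7190 probe sets higher and 6773 lower, beside 6222 higher and 7438 lower. The replicate block ended 1 call, that of CIPK17 (adjusted p = 0.0525), and changed no other of the 56 probe sets run under it; it called 5573 probe sets higher and 6877 lower. CIPK17 was also lost with no filter (0.0619), quantile normalization (0.118), median centring (0.0931) and no trend (0.0785). Leaving out 1 array each gave medians between 0.16 and 0.22 (CBL) and between -0.126 and -0.0761 (CIPK), and CIPK12 between -0.0718 and 0.0783, CIPK21 between -0.0135 and 0.0316, CIPK29 between -0.0275 and 0.0623, and the second probe set of CIPK31 between -0.221 and 0.0102. Array weights put CIPK12 at -0.0293. The causes were not tested. For CIPK12 and the second probe set of CIPK32 the upper 40% of signal gave no value, since they are too dim. Signals near the 10th percentile (CBL5, CBL9 and CIPK30) limit any statement on those genes.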
